A study of Mus musculus with 6 samples.

Results

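Matrix metalloproteinases (MMPs), the ADAM and ADAMTS proteases and the tissue inhibitors of metalloproteinases (TIMPs) were examined in mouse regulatory T (Treg) cells that were differentiated with or without sorafenib (Sora), a multikinase inhibitor given to patients with liver cancer. The members were all rows of the gene table whose symbol was Mmp, Adam, Adamts or Timp followed by a number, which gave 70 of 22939 genes. They comprised 18 MMPs, 32 ADAMs, 17 ADAMTS genes and 3 TIMPs. Naive CD4+ T cells came from C57BL/6J mice that carry GFP knocked in at the Foxp3 locus, and both groups of cultures received anti-CD3, anti-CD28, TGF-beta1, anti-IFN-gamma and anti-IL-4. GFP+ cells were then sorted, and bulk RNA-seq was performed on 3 libraries of cells grown without Sora (ctrl-Treg) and 3 of cells grown with Sora (Sora-Treg). The Sora dose of the RNA-seq cultures, the age of the mice and whether the 3 libraries of a group came from separate mice or cultures were not given in the sources used here, so the p-values measure the spread between these libraries, which may be technical. These cells were made in culture and are a model of induced Treg cells only. The study's abstract appears to describe its mice, the Foxp3-GFP mice among them, as female, and its methods state a sex for the C57BL/6J mice alone.

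All 4 protein families meet at the cell surface and in the matrix around it. MMPs and ADAMTS proteases cut matrix proteins such as collagen, aggrecan and fibrillin-associated proteins, whereas ADAMs sit in the membrane and many of them shed the outer parts of other membrane proteins. TIMPs occupy the active site of many of these enzymes and so block them, but each TIMP blocks some of them and not others. ADAM10 and ADAM17 are the main sheddases of T cells, where they release the IL-6 receptor, LAG-3 and TNF. An MMP is held inactive by its propeptide until that piece is cut away, often by furin, so a transcript level does not give the amount of active enzyme.

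The active site of these enzymes holds a zinc ion, bound by histidines of a short shared motif, the metzincin zinc-binding motif. The coding sequences were searched for it because some ADAMs lack it and cannot cut. It was found in 18 of 18 MMPs, 11 of 17 ADAMTS genes, 19 of the 31 ADAMs with a coding transcript and 0 of 3 TIMPs. No match says only that these residues were not found together in the transcripts searched, and not that an enzyme is inactive. Adamts4 (aggrecanase-1), for example, had no match. The sites of the abundant ADAMs are shown first, since the largest transcript amounts of the family are theirs. Each run is 33 coding bases, 5′ to 3′, from the GENCODE M21 transcripts of GRCm38, with the codons of the zinc-binding histidines, the catalytic glutamate and the glycine in capitals. The Adam10 site is split between exons, so its coordinates span an intron.
Adam19, chr11:46125050-46125082, plus strand: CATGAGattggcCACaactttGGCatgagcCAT
Adam8, chr7:139987893-139987925, minus strand: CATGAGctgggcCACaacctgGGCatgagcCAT
Adam9, chr8:24990326-24990358, minus strand: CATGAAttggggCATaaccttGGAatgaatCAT
Adam15, chr3:89344780-89344812, minus strand: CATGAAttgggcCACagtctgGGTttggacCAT
Adam10, chr9:70754296-70761585, plus strand: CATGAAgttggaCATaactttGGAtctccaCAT
Adam17, chr12:21336732-21336764, minus strand: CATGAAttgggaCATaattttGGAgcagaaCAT

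The sites of the MMPs that changed and of Adamts14 are shown for comparison, in the same notation. The Adamts14 site is also split by an intron.
Mmp23, chr4:155651528-155651560, minus strand: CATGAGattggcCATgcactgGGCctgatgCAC
Mmp14, chr14:54437627-54437659, plus strand: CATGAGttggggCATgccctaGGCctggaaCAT
Mmp15, chr8:95368585-95368617, plus strand: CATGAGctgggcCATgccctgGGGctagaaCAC
Adamts14, chr10:61225465-61227123, minus strand: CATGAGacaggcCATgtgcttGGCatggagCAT

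Among these 10 sites the closest pair was Adam19 and Adam8, with 29 of 33 bases identical, and Mmp14 and Mmp15 shared 27. Adam17 and Mmp23 shared 16. No such motif was found in Adam11, Adam2, Adam3, Adam4, Adam5 or Adam32, and the text below keeps these 6 apart from the 8 tested ADAMs that have it. A second feature, the cysteine switch that keeps the proenzyme silent, was searched only as the exact residues PRCGxPD, where x is any residue. It was matched in 12 of 18 MMPs and not in Mmp11, Mmp17, Mmp19, Mmp23, Mmp25 or Mmp28. A switch with other residues at these positions would be missed, so no match does not show that the switch is absent.

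The libraries held 30727686 to 37717324 counts, so that 3 counts, taken as the floor, were worth 0.0795 to 0.0976 CPM (counts scaled by library size). Foxp3 stood at 259 ± 8.99 CPM without Sora and 272 ± 4.75 with Sora (SD, n = 3 each), and Cd4 at 679 ± 2.08 and 709 ± 17.5 CPM. Myeloid markers were present at a low level, and their summed level was 93.9, 93.6 and 25.0 CPM in the ctrl-Treg libraries against 22.4, 43.1 and 20.8 in the Sora-Treg libraries. Of these 11 markers, 7 passed the filter on low counts, while S100a8, S100a9 and Cd33 had at most 3 counts in any library. Summed B cell markers were 2.38 to 3.79 CPM in ctrl-Treg and 8.88 to 9.10 in Sora-Treg libraries, stromal and endothelial markers 12.6 to 16.3 and 39.4 to 42.8, and NK and CD8 markers 13.2 to 15.2 and 12.6 to 13.8. The first 2 of these differences came with single genes: Ebf1 had 27 to 54 counts in ctrl-Treg and 265 to 303 in Sora-Treg libraries, and Pecam1 had 361 to 457 and 1153 to 1415 counts, while Cdh5 had at most 1. In bulk samples, fewer cells of a type and less RNA per cell cannot be told apart.

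Whether the members as a whole differed between Sora-Treg and ctrl-Treg cells was examined next. A filter on low counts left 26 of the 70 members for testing, and the other 44 are described by their counts below. With edgeR's quasi-likelihood test and Benjamini-Hochberg adjustment over all 13463 tested genes, 14 of 26 members (53.8%) had an adjusted p below 0.05, where the share over all genes was 59.6%. Of these, 10 rose (38.5%, against 29.7% of all genes) and 4 fell (15.4%, against 29.9%). Differentially expressed genes (DEGs), whose log2 fold change in addition exceeded 1 in size, numbered 5 of 26 (19.2%, against 11.3%). Timp1, Adamts14 and Adam2 were the 3 higher DEGs (11.5%, against 6.30%), and Mmp23 and Adam11 the 2 lower ones (7.69%, against 4.97%). Adamts14 and Adam2 passed the filter only through the Sora-Treg libraries, and Adam11 only through the ctrl-Treg libraries, where each was higher. The DEG shares therefore depend on the filter: with at least 1 CPM in at least 3 libraries, 1 higher and 1 lower DEG were left. Timp1 was the 1 higher DEG left without ctrl-Treg replicate 1 or without ctrl-Treg replicate 2, and 5 were called without Sora-Treg replicate 3. The values of the groups did not overlap for 15 of 26 members (57.7%), and for 63.7% of all genes. The median log2 fold change was 0.27 over the tested members and -0.0035 over all genes. Scaling by library totals alone, which lowered the median of all genes by 0.12 on the log2 scale, gave 9 higher and 7 lower members in place of 10 and 4.

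**Figure D1:**
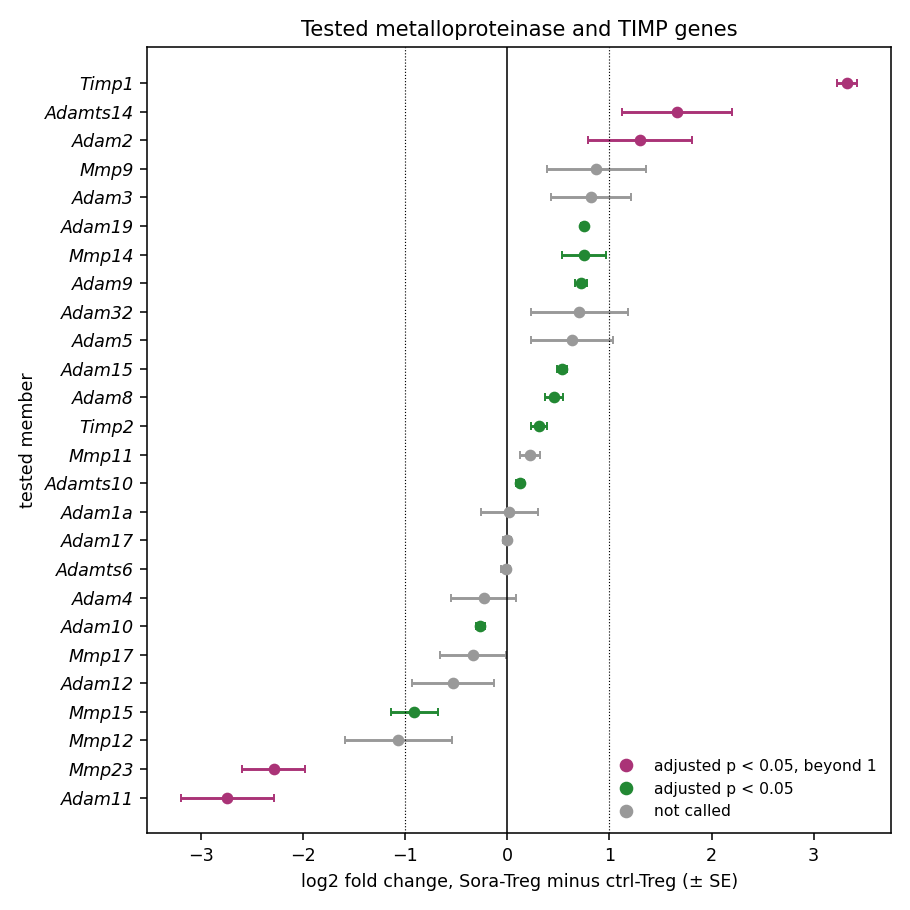
Log2 fold change (Sora-Treg minus ctrl-Treg, horizontal axis, bars are SE) of the 26 tested members, ordered by size, with colours for the call and dotted lines at -1 and 1. Timp1 stands at 3.33, and Mmp23 and Adam11 stand at -2.29 and -2.74.

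Among the 26 tested members, Timp1 had the largest log2 fold change in size. Timp1, a secreted inhibitor of most MMPs and of ADAM10 that is also known as a growth factor, stood at 3.17, 2.72 and 3.19 CPM in ctrl-Treg libraries and at 28.7, 33.6 and 29.0 CPM in Sora-Treg libraries. The lowest Sora-Treg library was far above the highest ctrl-Treg library. The log2 fold change was 3.33 ± 0.10 (SE, adjusted p = 4.45e-18 by edgeR), and 81 of 13463 tested genes had a larger one. Timp1 lies within the span of Syn1, a neuronal synapsin gene, with no shared exon in the annotation. Syn1 had 54, 42 and 24 counts in ctrl-Treg and 101, 106 and 122 in Sora-Treg libraries, against 99 to 125 and 872 to 1070 counts of Timp1, and its part in the Timp1 value was not tested.

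Timp2, which inhibits MMPs and, with MMP14, helps to activate pro-MMP2, was at 14.4, 14.3 and 16.3 CPM in ctrl-Treg and at 18.9, 19.3 and 17.6 CPM in Sora-Treg libraries. The groups did not overlap, and the rise was small, with a log2 fold change of 0.31 ± 0.08 (adjusted p = 0.00182 by edgeR). Timp3, the matrix-bound inhibitor of ADAM17, did not pass the filter, with 19, 13 and 4 counts in ctrl-Treg and 4, 6 and 7 in Sora-Treg libraries. Per length, as FPKM (fragments scaled to gene length and library total), the summed TIMP level was 7.91 ± 0.547 without Sora and 37.8 ± 3.04 with Sora (SD, n = 3 each). Timp1 made up 44.7% of that sum without Sora and 86.8% with Sora.

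Transcripts of the ADAMs with a catalytic motif were the most abundant of the 4 families. Of the 8 tested, Adam19, Adam9, Adam15 and Adam8 rose, Adam10 fell, and Adam17, Adam12 and Adam1a were not called. Adam19 (meltrin beta), a membrane protease known to cut neuregulin, had 250, 248 and 252 CPM in ctrl-Treg and 419, 415 and 425 CPM in Sora-Treg libraries. Replicates lay very close together, and the log2 fold change was 0.75 ± 0.03 (adjusted p = 1.00e-16 by edgeR). Adam19 also had the highest FPKM of all members in both groups, 36.7 ± 0.273 and 56.8 ± 0.692 (SD, n = 3 each), and its share of the summed ADAM level went from 32.3% to 42.2%.

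Adam9 (meltrin gamma), a widely expressed sheddase, had 27.7, 27.9 and 25.4 CPM in ctrl-Treg and 42.6, 47.1 and 44.2 CPM in Sora-Treg libraries, a log2 fold change of 0.72 ± 0.06 (adjusted p = 2.24e-10 by edgeR). Adam15 (metargidin), which carries an integrin-binding disintegrin domain, had 48.4, 51.0 and 44.7 CPM in ctrl-Treg and 72.6, 68.8 and 68.2 CPM in Sora-Treg libraries, a log2 fold change of 0.54 ± 0.05 (adjusted p = 2.05e-09). Neither gene overlapped between groups. Adam8 (CD156), a leukocyte sheddase, had 11.2, 12.2 and 10.7 CPM in ctrl-Treg and 16.6, 15.9 and 14.3 CPM in Sora-Treg libraries, a log2 fold change of 0.45 ± 0.09 (adjusted p = 0.000121). All Sora-Treg libraries were above all ctrl-Treg libraries for Adam8 too. Exons of Adam8 overlap Gm16201 on the opposite strand, which had 76 to 118 and 166 to 179 counts, and the strand setting of the counting was not given, so reads of the 2 genes may not be told apart.

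The 2 main sheddases of T cells did not rise. Adam10, the sheddase that cuts Notch receptors and LAG-3, had 136, 132 and 140 CPM in ctrl-Treg and 109, 121 and 110 CPM in Sora-Treg libraries. All Sora-Treg values were lower than all ctrl-Treg values, and the log2 fold change was -0.26 ± 0.04 (adjusted p = 5.72e-06 by edgeR), a fall of less than the DEG limit. Adam17 (TACE), which sheds TNF, had 84.3, 86.4 and 90.4 CPM in ctrl-Treg and 86.4, 85.3 and 88.1 CPM in Sora-Treg libraries. These values overlapped, and the log2 fold change was -0.01 with a 95% interval of -0.09 to 0.07 (adjusted p = 0.90). On library totals alone, Adam17 was at -0.12 (adjusted p = 0.00884 by edgeR), about the shift of all genes on that scale. Adam17 exons overlap those of Iah1 on the opposite strand, which had 500 to 643 counts in ctrl-Treg and 320 to 367 in Sora-Treg libraries.

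**Figure D2:**
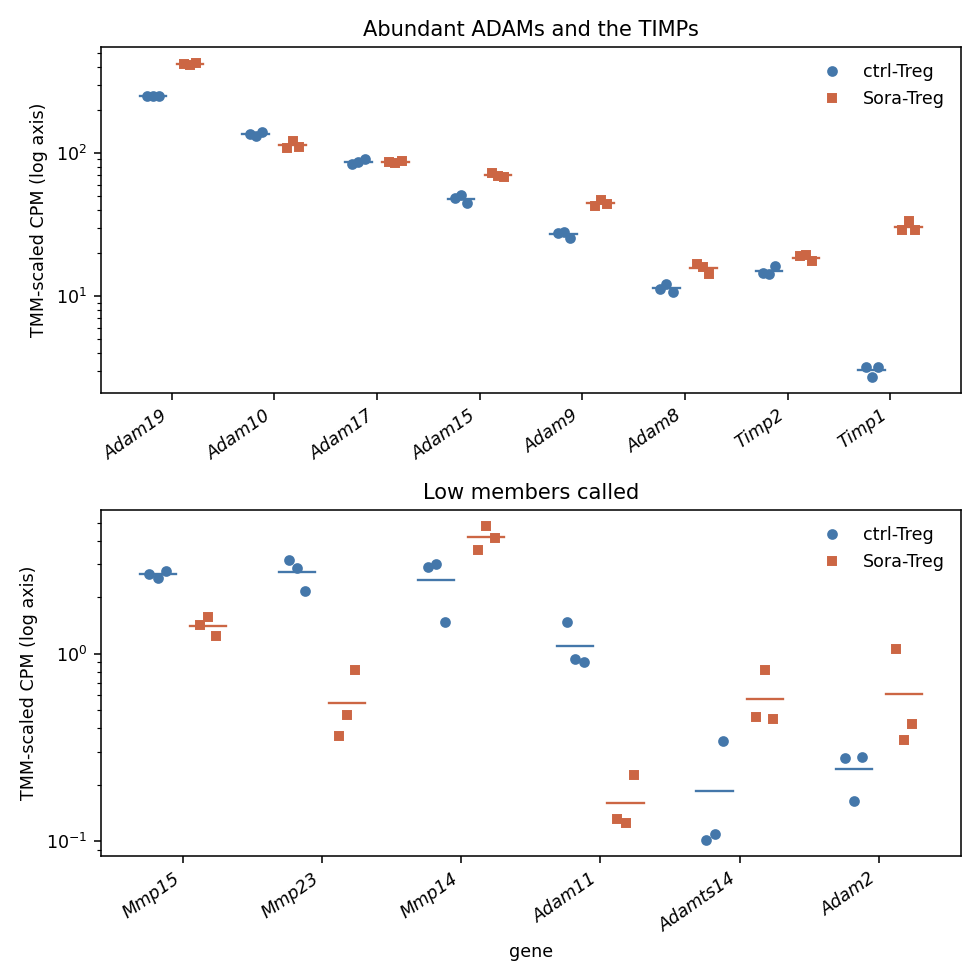
TMM-scaled CPM in each library (log axis, points) with the group mean (line), for abundant ADAMs and the TIMPs (top) and for low members that were called (bottom). Timp1 moves from about 3 to about 30 CPM and Adam19 from 250 to 420, whereas the Adam17 points of both groups share 1 range.

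Adam12 and Adam1a were low and not called. Adam12 (meltrin alpha) had 24 to 26 counts in ctrl-Treg and 11 to 21 in Sora-Treg libraries, with an interval of -1.36 to 0.31 for the log2 fold change, and Adam1a, a fertilin subunit gene, had 42 to 56 and 39 to 48 counts, with an interval of -0.56 to 0.60. Exons of Adam1a overlap the more abundant Mapkapk5 on the same strand, so its counts are uncertain.

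Of the 6 tested ADAMs without the motif, Adam11 fell, Adam2 rose, and Adam3, Adam4, Adam5 and Adam32 were not called. Adam11, a non-catalytic ADAM known from the nervous system, had 58, 34 and 29 counts in ctrl-Treg and 4, 4 and 8 in Sora-Treg libraries. In CPM these were 1.47, 0.934 and 0.908 against 0.132, 0.125 and 0.225, with a log2 fold change of -2.74 ± 0.45 (adjusted p = 1.70e-05 by edgeR). The groups were well apart, the Sora-Treg libraries were close to the floor, and 69 of 13463 genes had a lower fold change.

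Adam2 encodes fertilin beta, a sperm surface protein. It had 11, 6 and 9 counts in ctrl-Treg and 32, 11 and 15 in Sora-Treg libraries, with a log2 fold change of 1.30 ± 0.51 (adjusted p = 0.0326 by edgeR). Sora-Treg replicate 1 had the highest count, and without it the log2 fold change was 0.67 (adjusted p = 0.327). In 9 of 17 alternatives the call was lost.

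Adam3, Adam5 and Adam32, also known from sperm or testis, were highest in Sora-Treg replicate 1 as well. Adam18, a further sperm ADAM that was below the filter, was not, with 2, 7 and 3 counts in ctrl-Treg and 5, 1 and 1 in Sora-Treg libraries. Adam3 (cyritestin) had 22, 24 and 47 counts in ctrl-Treg and 75, 41 and 34 in Sora-Treg libraries (log2 fold change 0.82 ± 0.39, adjusted p = 0.0764), and Adam5 had 42, 27 and 33 against 74, 48 and 18 (0.63 ± 0.40, adjusted p = 0.186). Adam32 had 14, 10 and 19 counts against 33, 10 and 21 (0.70 ± 0.47, adjusted p = 0.21). These overlapped between groups. Without Sora-Treg replicate 3, Adam3 and Adam5 were called at log2 fold changes of 1.08 and 1.05 (adjusted p = 0.0295 and 0.0117 by edgeR), and without ctrl-Treg replicate 3 Adam3 was called at 1.35. Without Sora-Treg replicate 1 they were at 0.34 and 0.075 (adjusted p = 0.505 and 0.892). The spermatid genes Prm1, Prm2 and Tnp1 had their highest counts in the same library, 169, 268 and 213, and the 4 testis markers together were at 21.7 CPM there, 8.77 and 10.5 CPM in the other Sora-Treg libraries and 7.36 to 11.8 CPM in ctrl-Treg libraries. Acrv1, the fourth marker, had at most 9 counts and was not highest there. The part of testis-type RNA in the Adam2 value was not tested. Adam4, whose gene lies within the span of Cox16, had 35 to 52 counts in ctrl-Treg and 27 to 41 in Sora-Treg libraries and overlapped as well.

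The MMPs were present at low levels, apart from Mmp11. Of 7 tested, Mmp14 rose, Mmp23 and Mmp15 fell, and Mmp9, Mmp11, Mmp12 and Mmp17 were not called. Mmp23, an MMP anchored by its propeptide that has no cysteine switch match, had 3.17, 2.86 and 2.16 CPM in ctrl-Treg and 0.362, 0.471 and 0.815 CPM in Sora-Treg libraries. The ctrl-Treg libraries held 69 to 125 counts and the Sora-Treg libraries 11 to 29, with no overlap. The log2 fold change was -2.29 ± 0.31 (adjusted p = 9.87e-07 by edgeR), and 125 of 13463 genes had a lower one.

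The membrane-type MMPs moved in different directions. Mmp14 (MT1-MMP), which cuts collagen at the cell surface and activates pro-MMP2, had 2.90, 3.02 and 1.47 CPM in ctrl-Treg and 3.56, 4.80 and 4.16 CPM in Sora-Treg libraries, a log2 fold change of 0.75 ± 0.22 (adjusted p = 0.00506 by edgeR). The ctrl-Treg library with the lowest value was replicate 3, which was also lowest in myeloid markers, and with that library as the only control the log2 fold change was 1.50, while without it the value was 0.50 (adjusted p = 0.0358 by edgeR). Mmp15 (MT2-MMP) had 2.67, 2.53 and 2.76 CPM in ctrl-Treg and 1.42, 1.57 and 1.24 CPM in Sora-Treg libraries, a log2 fold change of -0.91 ± 0.23 (adjusted p = 0.00164). Mmp15 replicates were tight in both groups. Mmp17 (MT4-MMP) overlapped, at 29 to 71 counts in ctrl-Treg and 23 to 48 in Sora-Treg libraries.

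Mmp11 (stromelysin-3) was the most abundant MMP per length, at 5.58 ± 0.27 FPKM without Sora and 6.01 ± 0.942 with Sora (SD, n = 3 each). Its log2 fold change of 0.22 ± 0.10 missed the threshold (adjusted p = 0.0659 by edgeR), which it passed at 0.35 without Sora-Treg replicate 3 (adjusted p = 0.00312) and with a replicate block (adjusted p = 0.0489). Its exons overlap the more abundant Chchd10 on the opposite strand. Mmp12 (macrophage elastase) had 3.23, 2.25 and 0.157 CPM in ctrl-Treg and 1.02, 1.22 and 0.506 CPM in Sora-Treg libraries. The ctrl-Treg libraries spread over more than the whole Sora-Treg range, and the log2 fold change was -1.07 ± 0.52 (adjusted p = 0.0849). With ctrl-Treg replicates 1 and 2 left out, it was 2.52 in the other direction (adjusted p = 0.0205, the single control being assumed to vary like the others), and without replicate 3 it was -1.59 (adjusted p = 0.000375). Without Sora-Treg replicate 2 it was -1.34 (adjusted p = 0.0489 by edgeR), and without ctrl-Treg replicate 1 it was -0.42 (adjusted p = 0.589). It was also called on library totals (adjusted p = 0.0495) and without the filter on low counts (adjusted p = 0.000665).

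Mmp9 (gelatinase B), a type IV collagenase of myeloid cells and activated T cells, had 16, 13 and 3 counts in ctrl-Treg and 15, 14 and 24 in Sora-Treg libraries. In CPM these were 0.406, 0.357 and 0.0939 against 0.494, 0.439 and 0.674, which did not overlap but did not pass the test (log2 fold change 0.87 ± 0.49, adjusted p = 0.131 by edgeR). With ctrl-Treg replicate 3 as the only control it was 2.47 (adjusted p = 0.0498), and without that library it was 0.49 (adjusted p = 0.42). Mmp9 and Mmp12 were the 2 of 26 tested members (7.69%) whose level in ctrl-Treg replicate 3 was at most 50% of that in either other control. Over all genes that share was 1.64%, and among the myeloid markers it was 6 of 7: Lyz2 had 1870, 1743 and 403 counts, and Adgre1 939, 829 and 108, in the ctrl-Treg libraries. Cd68, the remaining tested marker, had 360, 353 and 211 counts in ctrl-Treg and 285, 326 and 346 in Sora-Treg libraries. It was not called (adjusted p = 0.161 by edgeR). Mmp9 was highest in Sora-Treg replicate 3, at 0.674 CPM, where the summed myeloid markers were lowest of all libraries, at 20.8 CPM. The part of myeloid RNA in the Mmp9 and Mmp12 values was not tested.

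**Figure D3:**
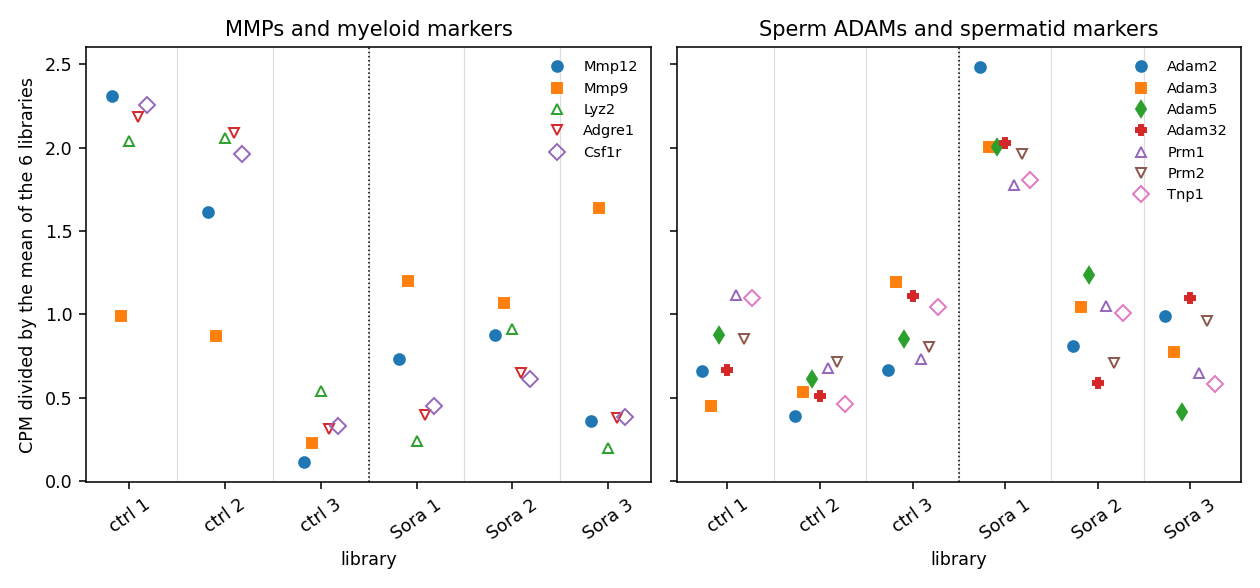
CPM of each gene divided by its mean over the 6 libraries, for Mmp12 and Mmp9 with myeloid markers (left, markers as open symbols) and for Adam2, Adam3, Adam5 and Adam32 with spermatid markers (right). Mmp12 and the plotted myeloid markers (Lyz2, Adgre1 and Csf1r) are high in ctrl-Treg replicates 1 and 2 and low in replicate 3. Mmp9 is also low in ctrl-Treg replicate 3 but highest in Sora-Treg replicate 3. The 4 ADAMs and the 3 spermatid markers plotted are highest in Sora-Treg replicate 1.

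The ADAMTS proteases had 3 tested members. Adamts14, a procollagen N-proteinase that trims collagen propeptides, had 4, 4 and 11 counts in ctrl-Treg and 14, 26 and 16 in Sora-Treg libraries. The groups did not overlap, and the log2 fold change was 1.66 ± 0.54 (adjusted p = 0.0105 by edgeR). Counts were few, and leaving out ctrl-Treg replicate 1, ctrl-Treg replicate 2 or Sora-Treg replicate 2 ended the call (adjusted p = 0.0693, 0.0619 and 0.074).

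Adamts10 and Adamts6, linked to fibrillin microfibrils, were far more abundant than Adamts14 in FPKM. Adamts10 had 78.1, 81.4 and 80.9 CPM in ctrl-Treg and 88.1, 87.9 and 85.4 CPM in Sora-Treg libraries, a log2 fold change of 0.12 ± 0.04 (adjusted p = 0.00875 by edgeR). On library totals alone it was at 0.0057 (adjusted p = 0.907), and without ctrl-Treg replicate 1 the call was lost (adjusted p = 0.0505). Adamts6 had 92.0 to 100 CPM in ctrl-Treg and 89.7 to 101 CPM in Sora-Treg libraries, and its interval ran from -0.11 to 0.08. The summed ADAMTS level, which is scaled to library totals, was 27.5 ± 0.322 and 26.6 ± 0.822 FPKM (SD, n = 3 each). The groups overlapped in this sum.

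The families can be compared per length with the deposited FPKM values, which are scaled to library totals. Summed ADAM transcripts were at 113 ± 0.396 FPKM without Sora and 135 ± 1.35 with Sora, and summed MMPs at 9.16 ± 0.971 and 8.45 ± 0.899 (SD, n = 3 each). ADAM sums were apart between groups, and MMP sums overlapped. In ctrl-Treg cells the order of tested members was Adam19 (36.7 FPKM), Adam10 (29.8), Adam17 (19.998), Adamts10 (15.5), Adam15 (15.3), Adamts6 (11.9), Adam9 (6.41), Mmp11 (5.58), Timp2 (4.30), Timp1 (3.54) and Adam8 (2.83). Adamts10 and Adam15 lay within 1 SD of each other. In Sora-Treg cells Timp1 was the second of all members, at 32.8 ± 2.89 FPKM, after Adam19 and before Adam10 (22.9 ± 1.29), Adam15 (20.6 ± 0.748) and Adam17 (18.4 ± 0.309). The other 15 tested members had mean levels under those of Adam8 in both groups.

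**Figure D4:**
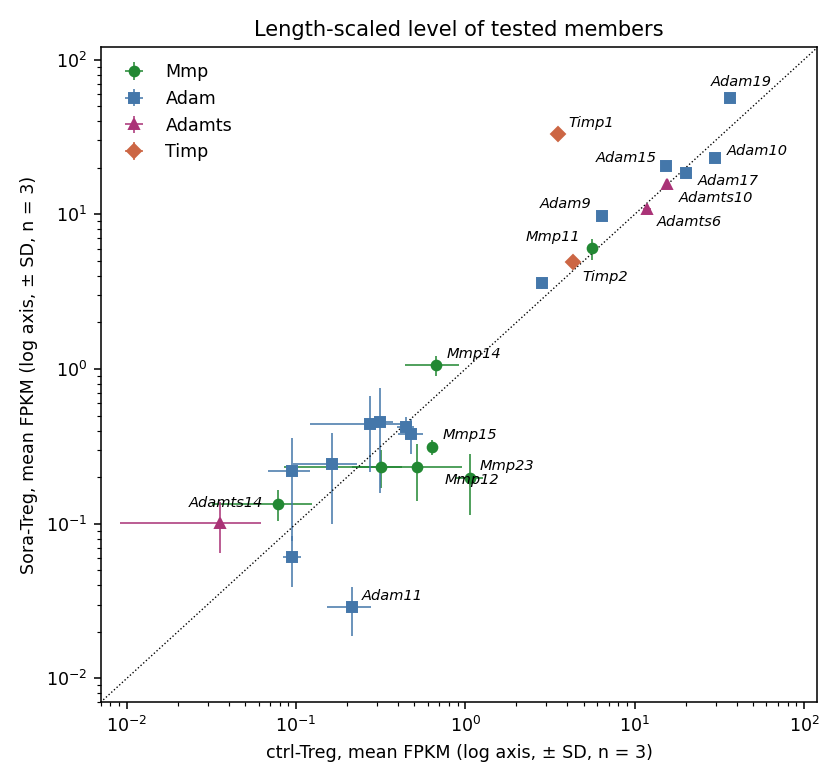
Mean FPKM of the 26 tested members in ctrl-Treg cells (horizontal) and Sora-Treg cells (vertical), on log axes with SD bars (n = 3) and the line of equal levels. Timp1 lies far above the line, Adam11 and Mmp23 lie below it, and the abundant ADAMs lie close to it.

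The other 44 members were at or near the limit of detection. Their highest count in any library was 19, 40 of them had at most 10 counts in every library, and 18 had at most 3. Timp3, with 53 counts over the 6 libraries, had the highest sum, followed by Adamts4 (aggrecanase-1) with 50, Mmp24 (MT5-MMP) with 42 and Mmp19 with 33. Adamts4 had 14, 8 and 10 counts in ctrl-Treg and 5, 6 and 7 in Sora-Treg libraries. Most of the classical matrix enzymes were in this set: gelatinase A (Mmp2) had 1 count in all libraries together, neutrophil collagenase (Mmp8) 14, collagenase-3 (Mmp13) 23 and matrilysin (Mmp7) 2. Adamts13, the von Willebrand factor protease, had 1, 4 and 2 counts in ctrl-Treg and 0 in each Sora-Treg library. Without any filter, Mmp28 (epilysin), with 3, 1 and 1 against 11, 7 and 4 counts, was called higher by edgeR. With limma on unfiltered FPKM, Adam33 (1, 3 and 2 against 8, 6 and 6 counts) and Adam1b (1, 1 and 1 against 4, 4 and 3) were called higher. A difference among the other genes below the filter was not detectable at this depth.

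The genes that regulate these proteases, and their targets, were taken as a list of 52, of which 39 were tested. Of these 39, 17 rose and 13 fell (76.9% called, against 59.6% of all genes), including 7 higher and 4 lower DEGs (28.2%, against 11.3%). On library totals alone 14 rose and 16 fell. The median log2 fold change was 0.10, against -0.0035 over all genes.

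Partners of ADAM10 and ADAM17 were tested for 7 of 9 genes, of which 3 rose and 2 fell. Rhbdf1 (iRhom1), which carries ADAM17 to the cell surface, had 7.75, 7.42 and 8.89 CPM without Sora and 4.49 ± 0.74 CPM with Sora (SD, n = 3), a log2 fold change of -0.83 ± 0.14, and Rhbdf2 (iRhom2) fell by 0.42 ± 0.07 on the same scale. Both falls passed the test (adjusted p = 1.39e-05 and 1.85e-05 by edgeR). Frmd8, which stabilises the iRhoms, was higher by 0.13 ± 0.03. In FPKM, which is scaled to library totals, Frmd8 overlapped between groups, at 45.8 ± 1.58 without Sora and 46.2 ± 0.788 with Sora (SD, n = 3 each). Tspan5 and Tspan17, tetraspanins that escort ADAM10, rose from 42.7 ± 1.29 to 72.5 ± 1.67 CPM and from 0.866 ± 0.074 to 2.80 ± 0.515 CPM (SD, n = 3 each), while Tspan14 and Tspan33 were not called.

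The proprotein convertases Furin and Pcsk7, which cut the propeptides of ADAMs and membrane-type MMPs, rose by 0.12 ± 0.02 and 0.24 ± 0.05 on the log2 scale. Scaling by library totals alone moved the genes by a median of -0.12, about the size of the Furin rise. In FPKM, which is scaled to library totals, Furin overlapped between groups, at 175 ± 2.13 without Sora and 175 ± 3.99 with Sora (SD, n = 3 each). Pcsk7 was at 4.42 ± 0.175 and 4.80 ± 0.0612 FPKM. Among 6 other inhibitors and inducers, 5 rose and 0 fell. Bsg (CD147, known as an inducer of MMPs) went from 475 ± 6.81 to 949 ± 12.6 CPM, and Cd63, a TIMP1 receptor component, from 3.34 ± 1.05 to 7.82 ± 0.228 CPM (SD, n = 3 each). A2m, the alpha-2-macroglobulin that traps many proteases, had 1 count in each ctrl-Treg library and 29, 27 and 21 in the Sora-Treg libraries. Lrp1, the receptor that clears MMPs and TIMPs, and Spock2 rose by 0.24 ± 0.05 and 0.43 ± 0.09, and Reck, a membrane-bound MMP inhibitor, was not called (adjusted p = 0.479 by edgeR).

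In the plasminogen system, which activates MMPs, Serpine2, an inhibitor of plasminogen activators, fell from 61.1 ± 4.05 to 33.1 ± 0.324 CPM (SD, n = 3 each), a log2 fold change of -0.88 ± 0.05, and Plau and Plaur were not called. Bmp1, the astacin protease that removes procollagen C-propeptides, fell from 3.92 ± 0.23 to 0.727 ± 0.216 CPM. The ADAMTS-like proteins, which have no protease domain, split: Adamtsl4 and Adamtsl5 rose by 2.61 ± 0.08 and 2.33 ± 0.12, and Papln fell by 1.50 ± 0.25 on the log2 scale.

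Of 16 substrates on T cells, 4 rose, 8 fell and 4 were not called. Tnf fell from 96.6 ± 3.41 to 33.1 ± 1.78 CPM and Il6ra from 69.9 ± 1.40 to 50.2 ± 2.52 CPM (SD, n = 3 each). Areg, Icam1, Cd40lg, Tnfsf11 and Notch1 also fell, by 1.79, 0.73, 0.90, 0.37 and 0.13 on the log2 scale. Fasl rose from 1.47 ± 0.202 to 12.2 ± 0.485 CPM, Il2ra from 1934 ± 32.1 to 3795 ± 54.1 CPM and Lag3 from 28.7 ± 0.637 to 48.1 ± 2.85 CPM, and Hbegf was the fourth to rise, by 0.80. Cd44, Havcr2, Tnfrsf1a and Tnfrsf1b were not called. Each of these values is a transcript level, and shed protein was not measured.

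**Figure D5:**
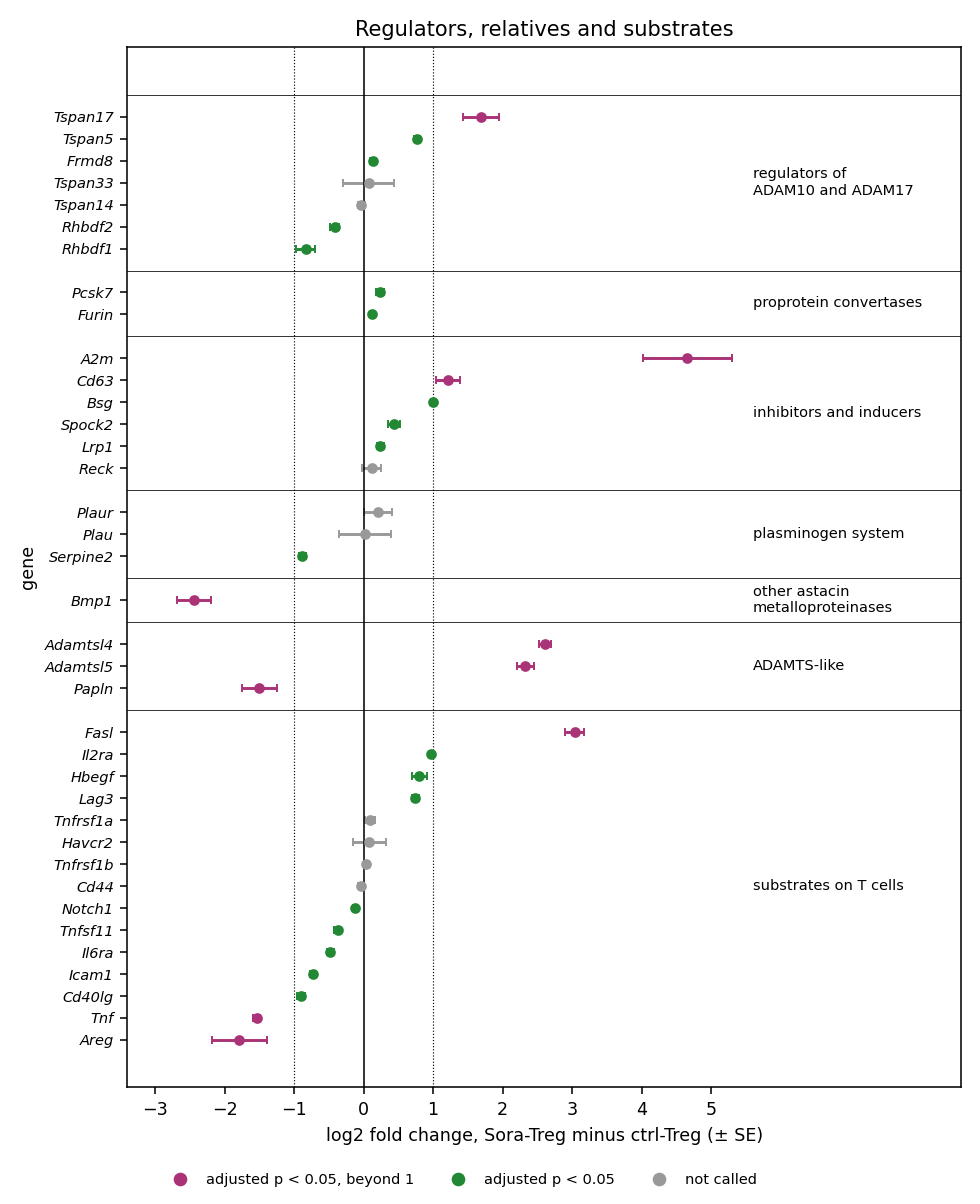
Log2 fold change (Sora-Treg minus ctrl-Treg, bars are SE) of tested regulators, relatives and substrates, grouped by role, with colours for the call. A2m stands above 4, a value resting on 1 count in each ctrl-Treg library, and Bmp1 stands at -2.44.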

How the data were processed

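Libraries were made with the VAHTS Universal V5 kit. The gene counts deposited by the authors are raw whole-number reads per gene, and the FPKM values deposited by the authors are those counts divided by gene length and library total (largest relative difference 1.64e-06 in implied length over 20237 genes). The submitters' processing notes name fastp, HISAT2, HTSeq, DESeq2 and GRCm39, whereas the study's methods name Bowtie2 and GRCm38, so no coordinates of whole genes are given here, and those of the printed sites are on GRCm38. Of the table's symbols, 97.5% were in the GRCm38.p6 annotation. Of the 584 that were not, 524 begin with LOC118, as do 525 symbols of the table and 1 of that annotation. Printed sequences and overlaps come from GENCODE M21 on GRCm38. RefSeq lists 10 further family symbols (such as Mmp3 and Timp4) that had no row in the deposited counts and so could not be analysed.

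Counts were tested with edgeR 4.0.16 (TMM, filterByExpr, quasi-likelihood test, R 4.3.3), on a script tested on simulated data. CPM values are TMM-scaled. A call required an adjusted p below 0.05, and a DEG also a log2 fold change beyond 1. Alternatives used DESeq2 1.42.0, limma 3.58.1 on log2(FPKM + 1) or log2(FPKM + 0.1), other filters, scalings, a replicate block and left-out libraries. Depth limits precision for low genes, floors cover counting error only, and the biological coefficient of variation was 4.29%. Replicates differed by more than sampling noise (chi-square per degree of freedom 3.48 to 6.23).

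The members, the lists and the tests were chosen with earlier results of these data known. Members named singly are the DEGs, the TIMPs, Adam10, Adam17, Adam8, Mmp9 and the 10 others with the smallest adjusted p. Adam32 was added to these after its values were seen. Adam4, Adam12, Adam1a, Mmp17, Adamts6 and the genes below the filter are given as counts, ranges or intervals. The genes named beside the members as overlapping, and the sperm ADAMs as a group, were chosen after their values were seen. The counts over the regulators and substrates cover the whole list, and the values of some genes in it and of 1 marker are not reported here.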

Additional observations from a re-analysis of the deposited data

How the results depend on the processing

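Of 20 members named singly, 9 kept their direction and their side of the threshold under all alternatives that gave a value, 17 for Adam11 and 18 for the others: Timp1, Mmp23, Adam11, Adam19, Adam9, Adam15, Adam8, Adam10 and Mmp15. The other 11 did not. Mmp12 reversed to 2.52 with ctrl-Treg replicates 1 and 2 left out. The log2 fold change of Adam17 ran from -0.0261 to 0.0195 with 1 library left out, turning positive without ctrl-Treg replicate 3 (0.0195) or Sora-Treg replicate 2 (0.0073), and was never called there. Library totals alone gave 7 lower members and 4 lower DEGs. A minimum of 1 CPM in at least 3 libraries left 1 higher and 1 lower DEG, since fewer members passed. With limma on log2(FPKM + 1), which shrinks the change of low genes, 1 member was a higher and 0 a lower DEG, with or without the filter, and 5 members fell at an adjusted p below 0.05, the 4 of edgeR and Adam17, while the regulators and substrates had 4 higher and 1 lower DEGs. On log2(FPKM + 0.1), 6 members rose and 1 was a higher DEG. Leaving out 1 library at a time gave 1 to 5 higher DEGs, with 1 (Timp1) without ctrl-Treg replicate 1 or 2 and 5 without Sora-Treg replicate 3, when Adam3 and Adam5 joined. Deviations from the group mean were little shared by libraries of the same number (correlations of -0.02, 0.0912 and 0.0486 for replicates 1, 2 and 3). Libraries of unlike number were not compared in this way, so these values cannot settle whether the libraries were paired. The fit with a replicate block gave 11 higher and 4 lower members, with Mmp11 added (adjusted p = 0.0489 by edgeR), and 3 higher and 2 lower DEGs. Other calls were lost for Adamts10 (on upper quartile scaling, on library totals, without ctrl-Treg replicate 1, with ctrl-Treg replicates 1 and 2 left out and in all limma fits, adjusted p = 0.0505 to 0.907), Adamts14 (with 1 of 3 libraries left out, with ctrl-Treg replicates 1 and 2 left out and in FPKM without a filter, adjusted p = 0.0619 to 0.474), Adam2 (in 9 of 17 alternatives), Timp2 (with ctrl-Treg replicates 1 and 2 left out, or in FPKM without a filter) and Mmp14 (on log2(FPKM + 0.1), or in FPKM without a filter), and the cause was not tested.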
